A study of Mus musculus with 6 samples.

Results

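The genes described here are 42 genes of the unfolded protein response and of the folding and export of secreted proteins in the endoplasmic reticulum. They were taken by name from a list of the pathway, and their values did not enter the rule, although the list was drawn up with earlier results of these data known. Of the 42 genes, 41 had a probe set that names them alone, among 22180 genes with such a probe set in all, and each took the brightest of these by the mean over all arrays. Pdia4 was named only by a probe set that also names a microRNA and is not counted. Of the 41 measured genes, 40 passed the filter on dim genes and were tested among 13308 genes. Trib3 lay under the filter's limit of 5.07 on the log2 scale and is given by its values only. The RNA came from bone marrow endothelial cells of male C57BL/6J mice, 5000 sorted cells a sample, and was amplified and hybridised to 6 microarrays. The diabetic group held 3 arrays of mice with high fat diet-induced diabetes, and the nondiabetic group held 3 arrays labelled as controls. All 6 samples carry the same note of a diet with 60 kcal% fat for 4 months, so what the nondiabetic mice ate is not settled by the labels. Neither is it stated whether the arrays of a group come from separate mice or from pooled animals, so a p-value here rests on the spread among these arrays alone, and that spread may be technical.

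Proteins that a cell secretes or places in its membranes are folded in the endoplasmic reticulum by chaperones, disulfide isomerases and prolyl isomerases. When unfolded protein accumulates there, the sensors IRE1, PERK and ATF6 set off the unfolded protein response: IRE1 (Ern1) splices the mRNA of the transcription factor XBP1, PERK (Eif2ak3) slows translation and favours production of the transcription factor ATF4, and ATF6 is cut to release a transcription factor. Together these raise chaperones, export machinery and the degradation of misfolded protein. Endothelial cells secrete matrix, adhesion and clotting proteins, and plasma cells, which also live in the marrow, carry much of this machinery. Splicing of Xbp1, phosphorylation of PERK and cleavage of ATF6 are not read by gene-level probe sets.

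All 21 markers listed for endothelium, the labelled cell type, among them Cdh5 and Pecam1, were above the dim limit, with list means per array from 8.72 to 9.39 on the log2 scale in diabetic arrays and from 8.74 to 9.23 in nondiabetic arrays. Markers of other marrow cells were present in both groups, and some were brighter than Cdh5, the brightest endothelial marker. Means in diabetic and nondiabetic arrays were 10.88 and 10.98 for Cdh5, 12.68 and 12.47 for Ighm, and 11.39 and 11.29 for Prss34. List means for basophils and mast cells were 8.88 to 9.31 in diabetic and 8.55 to 9.74 in nondiabetic arrays. Those of the other lists are given below. The share of endothelial cells in the samples was not tested. In bulk samples, a difference in the number of cells of a type and a difference in RNA per cell cannot be told apart. Diabetic replicate 1 stood apart with a mean over the tested genes of 6.84, where the other 5 arrays had 6.69 to 6.73.

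No member was called between the diabetic and the nondiabetic arrays. By limma the adjusted p was 0.997 for all 40 tested members, and over all tested genes 0.00751% were called. Most members nevertheless had somewhat higher values in the diabetic arrays. Of the 41 measured members, 36 had a difference (diabetic minus nondiabetic) above 0 and 5 below, and the median difference was 0.21 on the log2 scale. Over all measured genes 49.1% had a difference above 0 and the median was -0.0037, and over the tested genes these were 54.0% and 0.02. The differences ran from -0.54 for Chac1 to 0.59 for Fkbp11. The median within-group SD was 0.27 for the tested members and 0.24 for all tested genes. Members share the same 6 arrays and are not independent of each other. Markers of some other cells also lay higher in diabetic arrays: list means per array were 7.55 to 7.79 in diabetic and 7.21 to 7.38 in nondiabetic arrays for monocytes and macrophages, 7.61 to 7.76 in diabetic and 7.20 to 7.46 in nondiabetic arrays for neutrophils, and, with overlap, 7.36 to 8.19 in diabetic and 7.05 to 7.76 in nondiabetic arrays for plasma cells. These means leave out dim markers, and with them the summed log2 levels of the neutrophil markers overlapped between the groups. Of the 16 measured neutrophil markers 10 had differences above 0 and 6 below, with a median of 0.11. All 10 measured megakaryocyte and platelet markers had differences above 0, with a median of 0.18, although their list means overlapped. Erythroid markers and T and NK markers had median differences of -0.11 and -0.04. The part of any of these cells in the members' differences was not tested.

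**Figure D1:**
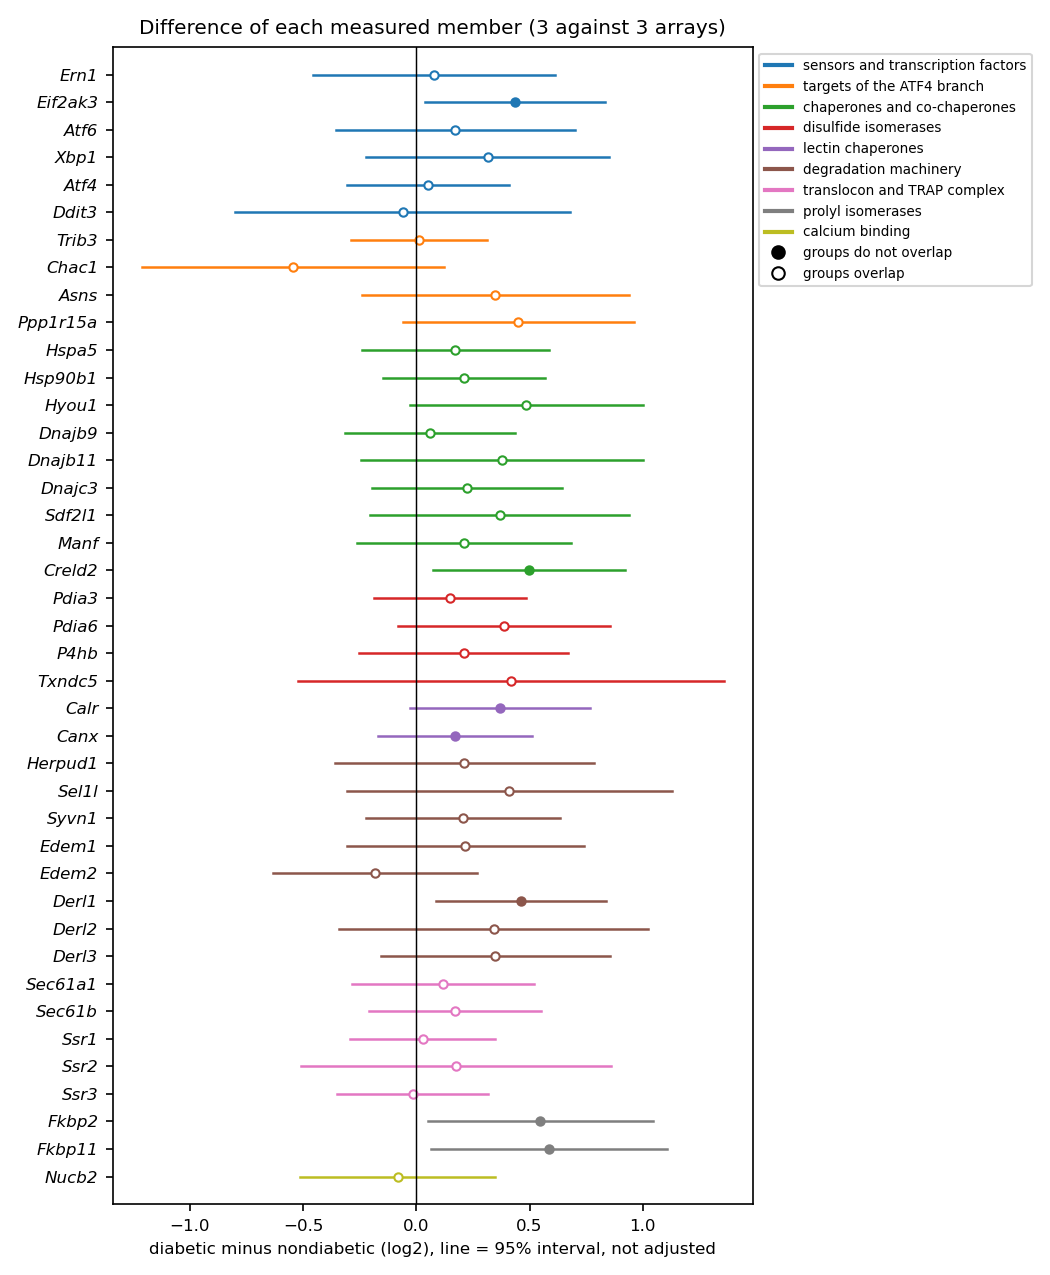
Difference of each measured member, diabetic minus nondiabetic on the log2 scale (horizontal axis), with its 95% interval as a line, 3 arrays against 3, ordered and coloured by role. Filled points mark the 7 members whose groups do not overlap, all at positive differences, and the intervals of 5 members lie above 0 before adjustment.

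For 7 members the lowest diabetic array exceeded the highest nondiabetic one: Fkbp11, Fkbp2, Creld2, Derl1, Eif2ak3, Calr and Canx. That is 17.5% of the 40 tested members, where 5.28% of all tested genes showed this pattern. For 0 members all diabetic arrays lay below, where 2.67% of tested genes did. An unadjusted limma p under 0.05 with a higher diabetic mean was reached by 5 members (all of these but Calr and Canx), which is 12.5% of those tested, against 3.19% of all tested genes, and 0 members reached it with a lower mean. With each array centred on its median the number that did not overlap was 4 (Derl1, Eif2ak3, Fkbp11 and Fkbp2), where 4.89% of all tested genes were higher without overlap. With quantile normalization again it was 6, where the share of tested genes was 4.61%. There Derl1 and Canx overlapped and Xbp1 did not, so Eif2ak3, Fkbp2 and Fkbp11 stayed apart under both. When single arrays were left out, the differences of Calr, Creld2, Derl1, Eif2ak3 and Hyou1 stayed within 1.5 times of their value each time, and those of the other 35 tested members did not.

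The largest differences among the members were those of the prolyl isomerases, which turn proline bonds in folding chains. Fkbp11, a membrane-bound isomerase typical of secretory cells, had log2 values of 6.51, 5.91 and 5.70 in diabetic replicates 1 to 3, against 5.60, 5.43 and 5.33 in nondiabetic replicates 1 to 3. The groups did not overlap, but diabetic replicate 3 lay only 0.096 above the highest nondiabetic array, and the lowest value, 5.33, was near the dim limit of 5.07. The difference was 0.59 (SE 0.23), or 1.5-fold, with a 95% interval of 0.07 to 1.11, and it was 0.35 without diabetic replicate 1. Fkbp2, an isomerase of the lumen, had 10.30, 10.05 and 10.50 in diabetic arrays, against 9.34, 9.95 and 9.92 in nondiabetic arrays. Nondiabetic replicate 1 was the low array here, and the difference of 0.55 (SE 0.22), or 1.46-fold, became 0.35 without it.

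Of the 3 sensors, PERK alone had groups that did not overlap. Eif2ak3 had log2 values of 6.24, 5.96 and 6.40 in diabetic arrays, against 5.88, 5.62 and 5.79 in nondiabetic arrays. The lowest diabetic array lay 0.078 above the highest nondiabetic one, and the difference was 0.44 (SE 0.17), or 1.35-fold, with a 95% interval of 0.04 to 0.83. Leaving out single arrays gave 0.34 to 0.56. Ern1, which encodes IRE1, had 7.86, 8.15 and 7.52 in diabetic arrays, against 7.74, 7.44 and 8.12 in nondiabetic arrays. These groups overlapped over most of their range, and the difference of 0.08 (95% interval -0.46 to 0.61) changed sign when single arrays were left out. Atf6 had 8.63, 8.01 and 8.20 in diabetic arrays, against 7.84, 8.47 and 8.01 in nondiabetic arrays, a difference of 0.17 (SE 0.23) that was -0.0032 without diabetic replicate 1. Whether the difference of Eif2ak3 exceeds those of Ern1 and Atf6 was not tested.

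The groups of all 3 transcription factors of the response overlapped. Xbp1 had 9.51 in diabetic replicate 1 and 8.78 and 8.69 in the other diabetic arrays, against 8.57, 8.77 and 8.69 in nondiabetic arrays. A single array thus carried its difference of 0.31 (SE 0.23), which was 0.05 without that array. The groups overlapped here but not with quantile normalization again. Atf4 had 10.79, 10.84 and 10.52 in diabetic arrays, against 10.59, 10.70 and 10.70 in nondiabetic arrays, a difference of 0.05 (95% interval -0.31 to 0.41). Ddit3, which encodes the stress factor CHOP, had 8.98, 8.23 and 8.24 in diabetic arrays, against 8.27, 8.16 and 9.20 in nondiabetic arrays. Here 1 array of each group was high, and the difference was -0.06 (SE 0.32).

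Targets of the ATF4 branch had differences of both signs. Chac1, which breaks down glutathione, had 5.69, 5.45 and 5.2 in diabetic arrays, against 5.87, 5.48 and 6.62 in nondiabetic arrays. It had the lowest difference of all members, -0.54 (SE 0.29) with a 95% interval of -1.21 to 0.12, and the high nondiabetic replicate 3, the array also highest for Ddit3, carried much of it: without that array it was -0.23. Ppp1r15a, the phosphatase subunit GADD34 that restores translation, had 8.82, 9.23 and 8.69 in diabetic arrays, against 8.47, 8.14 and 8.79 in nondiabetic arrays. The groups overlapped through nondiabetic replicate 3 alone, and the difference was 0.45 (SE 0.22), or 1.37-fold. Asns, asparagine synthetase, had 7.35, 6.32 and 6.96 in diabetic arrays, against 6.39, 6.57 and 6.62 in nondiabetic arrays. Its difference of 0.35 (SE 0.26) was 0.11 without diabetic replicate 1. The pseudokinase gene Trib3 was dim on average, at 4.89, 5.06 and 5.01 in diabetic arrays against 4.82, 4.98 and 5.14 in nondiabetic arrays.

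All 9 chaperones and co-chaperones had differences above 0, with a median of 0.22. BiP (Hspa5), the Hsp70 of the endoplasmic reticulum and the usual gauge of the response, had 9.61, 9.68 and 9.35 in diabetic arrays, against 9.17, 9.33 and 9.62 in nondiabetic arrays. The groups overlapped, and the difference was 0.17 (SE 0.18), or 1.13-fold, with -0.24 to 0.59 as its 95% interval. It was 0.069 without nondiabetic replicate 1 and 0.30 without nondiabetic replicate 3. Its large partner GRP94 (Hsp90b1) had 11.70, 11.49 and 11.47 in diabetic arrays, against 11.27, 11.27 and 11.49 in nondiabetic arrays, with overlap only at nondiabetic replicate 3. Creld2, a chaperone that pairs with disulfide isomerases, had 8.63, 8.33 and 8.70 in diabetic arrays, against 7.86, 8.0 and 8.31 in nondiabetic arrays. These groups stood just apart, by 0.021, and the difference was 0.50 (SE 0.18), or 1.41-fold, with a 95% interval of 0.08 to 0.92. Hyou1, the nucleotide exchange factor of BiP, had 8.26, 7.70 and 8.02 in diabetic arrays, against 7.22, 7.42 and 7.87 in nondiabetic arrays. Its difference was 0.49 (SE 0.22), or 1.40-fold, and the groups overlapped through nondiabetic replicate 3.

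Several of BiP's co-chaperones turned on nondiabetic replicate 1. Dnajb11, a J protein that hands clients to BiP, had 9.25, 8.77 and 9.0 in diabetic arrays, against 8.06, 8.75 and 9.08 in nondiabetic arrays. Its difference of 0.38 (SE 0.27) was 0.09 without the low nondiabetic replicate 1. Sdf2l1, a partner of Dnajb11, had 7.73, 8.09 and 8.04 in diabetic arrays, against 7.07, 7.68 and 8.0 in nondiabetic arrays, and its difference of 0.37 (SE 0.25) was 0.11 without that array. Dnajc3, a J protein also known as an inhibitor of PERK, showed the same array low, and its difference of 0.22 was 0.06 without it. Dnajb9, a J protein that restrains IRE1, differed by 0.06 (SE 0.16), and Manf, a secreted protein that binds BiP, by 0.21 (SE 0.21), or 0.016 without nondiabetic replicate 2.

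**Figure D2:**
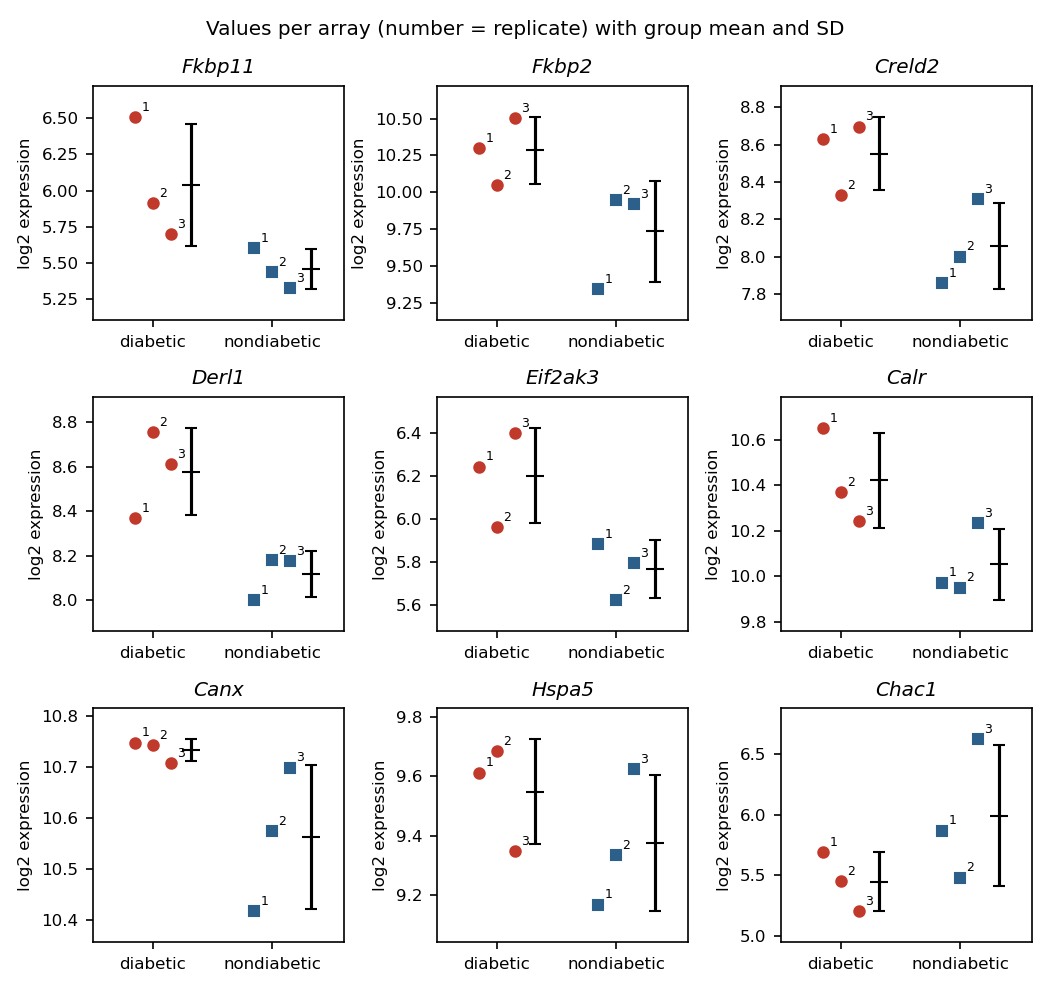
Log2 expression per array (vertical axis, scaled per gene) for the 7 members whose groups do not overlap, with Hspa5 and Chac1 for contrast. Points are arrays with their replicate number, diabetic left and nondiabetic right, and bars are mean and SD (n = 3). Calr and Canx separate by under 0.01, Derl1 by 0.19, and nondiabetic replicate 3 is the highest nondiabetic array for Creld2, Calr, Canx, Hspa5 and Chac1.

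Many promoters of this response hold the endoplasmic reticulum stress element (ERSE), read by ATF6 and XBP1. Genes under this control are in part what the pathway is known by, so finding the element among the members describes them and is no independent result. Sequences of 250 bases before to 50 bases after each start came from RefSeq (GRCm38.p6) and covered 36 of the 42 members. ERSE was searched as CCAAT, then 9 bases of any kind, then CCACG, on both strands. It was found in 9 of these 36 members and in 0.119% of the 32851 promoter windows of all genes. ERSE-II, searched as ATTGG, 1 base of any kind, then CCACG, was found in Herpud1 and Dnajb11 and in 0.0365% of all windows. The core TGACGTGG of the element bound by XBP1 was found in Txndc5 and in 0.676% of all windows. TGATGNAAT, 1 form of the core of the element bound by ATF4, was found in 0 members and 0.965% of all windows. That form is narrow: the Asns window holds TGATGAAAC, which differs from it in the last letter only. The search therefore does not show that members lack an ATF4 element. No match overlapped another among the members, and a match shows letters, not binding. The 250 bases before the start of Hspa5 are shown as the best known promoter of the response, on chr2:34771840-34772089, plus strand, with the ERSE in capitals.
Hspa5: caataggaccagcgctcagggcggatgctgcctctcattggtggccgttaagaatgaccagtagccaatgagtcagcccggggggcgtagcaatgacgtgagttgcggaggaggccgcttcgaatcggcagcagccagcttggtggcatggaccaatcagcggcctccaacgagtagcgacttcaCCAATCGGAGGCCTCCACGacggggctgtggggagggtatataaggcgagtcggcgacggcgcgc

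The ERSE matches of the other 8 members, and the ERSE-II match of Herpud1, are set out so that their shared ends and differing middles can be compared. Each is written on the strand of its gene with the match in capitals and 6 flanking bases on each side, and a match that starts with CGTGG lies on the opposite strand.
Calr, chr8:84847069-84847099, minus strand: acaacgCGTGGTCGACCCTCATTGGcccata
Canx, chr11:50325794-50325824, minus strand: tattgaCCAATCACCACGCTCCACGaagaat
Creld2, chr15:88819514-88819544, plus strand: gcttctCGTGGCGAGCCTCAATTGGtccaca
Derl3, chr10:75893236-75893266, plus strand: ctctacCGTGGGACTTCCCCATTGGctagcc
Dnajc3, chr14:118937821-118937851, plus strand: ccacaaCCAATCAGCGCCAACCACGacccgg
Hsp90b1, chr10:86705632-86705662, minus strand: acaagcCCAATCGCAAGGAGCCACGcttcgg
Hsp90b1, chr10:86705527-86705557, minus strand: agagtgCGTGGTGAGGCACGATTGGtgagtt
Pdia6, chr12:17266485-17266515, plus strand: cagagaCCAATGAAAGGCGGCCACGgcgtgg
Syvn1, chr19:6046526-6046556, plus strand: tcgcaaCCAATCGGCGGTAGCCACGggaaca
Herpud1, chr8:94386371-94386393, plus strand: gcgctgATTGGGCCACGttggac

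The 9 members with an ERSE match all had differences above 0, from 0.17 for Canx to 0.50 for Creld2, with a median of 0.22. The 26 measured members whose window held none had a median of 0.21, with 21 above 0 and a wider range of -0.54 to 0.59. The medians thus lay close together. Of the 7 members whose groups did not overlap, Calr, Canx and Creld2 carry an ERSE, while the windows of Fkbp2, Fkbp11 and Eif2ak3 held none of the 4 elements searched and no window was given for Derl1.

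The lectin chaperones calreticulin (Calr) and calnexin (Canx), which hold glycoproteins during folding, both separated the groups by a hair. Calr had 10.65, 10.37 and 10.24 in diabetic arrays, against 9.97, 9.95 and 10.23 in nondiabetic arrays, a difference of 0.37 (SE 0.17), or 1.29-fold. Canx had 10.75, 10.74 and 10.71 in diabetic arrays, against 10.42, 10.57 and 10.70 in nondiabetic arrays. Its diabetic arrays were close together (SD 0.02), and the difference was 0.17 (SE 0.15). The lowest diabetic array lay above the highest nondiabetic array by 0.0075 for Calr and by 0.0087 for Canx.

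The 4 measured disulfide isomerases, which form and shuffle disulfide bonds, all had differences above 0, with a median of 0.30 and overlapping groups. Pdia6 had 9.04, 8.91 and 8.65 in diabetic arrays, against 8.21, 8.40 and 8.83 in nondiabetic arrays. Its difference was 0.39 (SE 0.20), or 1.31-fold, and overlap came from nondiabetic replicate 3. Txndc5, an isomerase also abundant in plasma cells, had the largest SE of the members: 8.94, 7.58 and 8.02 in diabetic arrays, against 7.03, 8.0 and 8.25 in nondiabetic arrays. Its difference of 0.42 (SE 0.41) was 0.04 without diabetic replicate 1. P4hb, the founding isomerase and a subunit of collagen prolyl hydroxylase, differed by 0.21 (SE 0.20), and by 0.042 without diabetic replicate 1. Pdia3, the partner of calnexin, differed by 0.15 (SE 0.15).

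In the degradation machinery, which draws misfolded protein back to the cytosol, 7 of 8 members had differences above 0. Derl1, which encodes a channel-forming derlin, had 8.37, 8.76 and 8.61 in diabetic arrays, against 8.0, 8.18 and 8.18 in nondiabetic arrays. It showed the widest gap between the groups of any member, 0.19, and a difference of 0.46 (SE 0.16), or 1.38-fold, although its groups overlapped with quantile normalization again. The 95% interval was 0.09 to 0.84, and the values ran from 0.37 to 0.57 when single arrays were left out. Derl2 had 8.62, 8.99 and 8.93 in diabetic arrays, against 9.22, 8.19 and 8.11 in nondiabetic arrays. Nondiabetic replicate 1 was the highest of all 6 arrays for this derlin, and without it the difference of 0.34 was 0.70. A second probe set of Derl2 differed by 0.15. Derl3, the derlin most tied to secretory cells, had 6.5, 6.27 and 6.06 in diabetic arrays, against 6.08, 5.51 and 6.18 in nondiabetic arrays, a difference of 0.35 (SE 0.22) that was 0.14 without the low nondiabetic replicate 2.

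The ubiquitin ligase HRD1 (Syvn1) and its scaffold Sel1l differed by 0.21 (SE 0.19) and 0.41 (SE 0.31), and without diabetic replicate 1 by 0.059 and 0.088. Sel1l had 8.74, 7.41 and 8.12 in diabetic arrays, against 7.61, 7.90 and 7.53 in nondiabetic arrays, so the diabetic group held both the highest and the lowest array. Herpud1, a stress-induced cofactor of this ligase, differed by 0.21 (SE 0.25), and by 0.02 without nondiabetic replicate 2. The mannosidase-like proteins that mark glycoproteins for degradation pointed opposite ways, with 0.22 (SE 0.23) for Edem1 and -0.18 (SE 0.20) for Edem2. Edem2 had 7.46, 7.23 and 7.05 in diabetic arrays, against 7.47, 7.68 and 7.13 in nondiabetic arrays.

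Genes of the translocon and of its TRAP complex, through which new chains enter, had a median difference of 0.12, with 4 of 5 above 0. The channel subunits Sec61a1 and Sec61b differed by 0.12 (SE 0.18) and 0.17 (SE 0.17), and the TRAP subunits Ssr1, Ssr2 and Ssr3 by 0.03 (SE 0.14), 0.17 (SE 0.30) and -0.02 (SE 0.14). Ssr3 had 7.86, 7.69 and 7.82 in diabetic arrays, against 7.85, 7.71 and 7.86 in nondiabetic arrays. These groups overlapped, and the 95% interval of the difference was -0.35 to 0.32. The second probe set of Ssr1 differed by 0.20, and that of Sec61b was dim in both groups. Nucb2, a calcium-binding protein of the secretory pathway and the precursor of nesfatin, differed by -0.08 (SE 0.19).

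**Figure D3:**
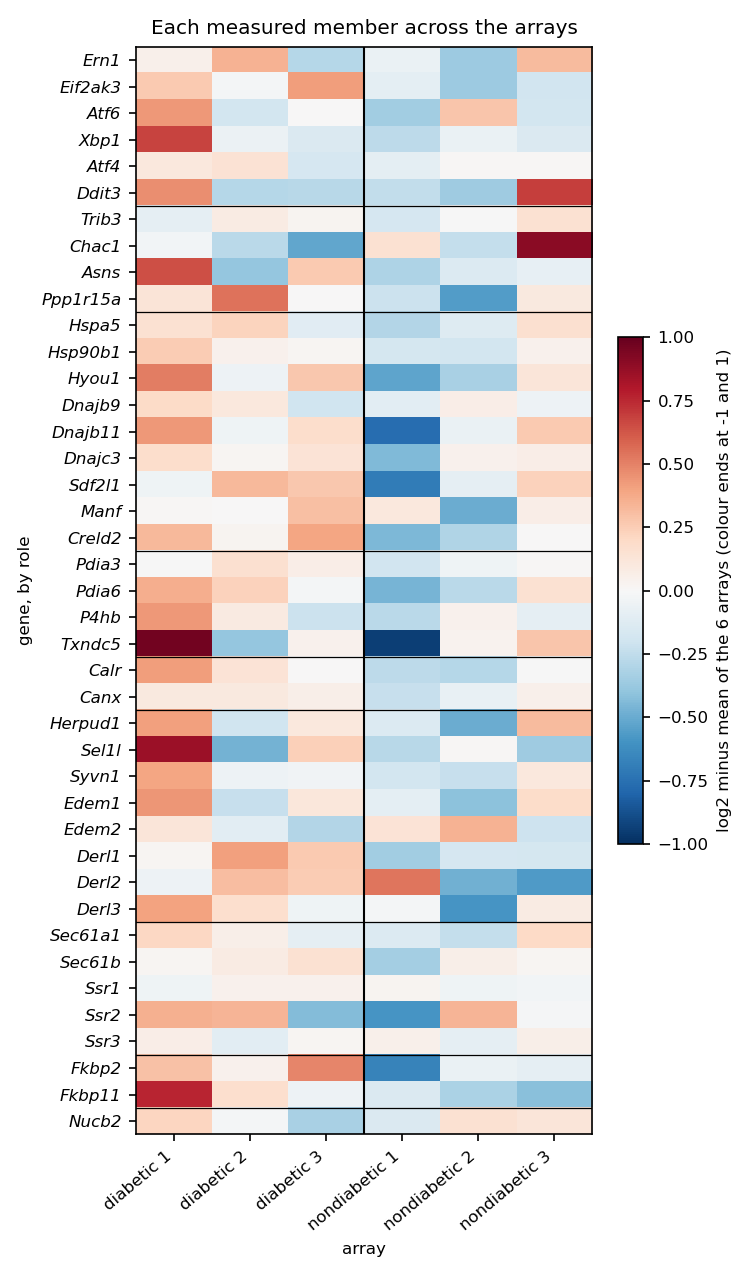
Each measured member (rows, by role, separated by lines) in each array (columns, diabetic left of nondiabetic), coloured by its log2 value minus its mean over the 6 arrays. Diabetic replicate 1 is the highest array for 23 of 41 members, nondiabetic replicate 1 the lowest for 18, and nondiabetic replicate 3 is above the nondiabetic mean for 34.

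Single arrays stood out across the members. The mean over the 41 measured members was 8.73, 8.48 and 8.48 in diabetic replicates 1 to 3, against 8.22, 8.30 and 8.51 in nondiabetic replicates 1 to 3. Nondiabetic replicate 3 thus stood above 2 of the diabetic arrays. Diabetic replicate 1 was the highest array for 23 of the 41 members, where it was highest for 29.9% of all tested genes. Nondiabetic replicate 1 was lowest for 18 members, where it was lowest for 17.3% of all tested genes. Without diabetic replicate 1 the median difference of the tested members was 0.13, and without nondiabetic replicate 1 it was 0.12, against 0.21 with all arrays. Without nondiabetic replicate 3 it was 0.30.

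Other genes of the secretory pathway, from 8 lists that hold none of the members, were also more often above 0 than below. Of 160 listed genes 150 were measured and 140 tested, and 0 passed the adjusted limma test, while 9 had an unadjusted p under 0.05, all higher. Of the measured genes 104 had a difference above 0 and 46 below, with a median of 0.13, and for 18 the diabetic arrays all lay above the nondiabetic arrays. Over all tested genes 3.19% had an unadjusted p under 0.05 with a higher mean, and 5.28% lay higher without overlap. A difference above 0 was found for 49.1% of all measured genes and 54.0% of all tested genes. By branch the counts ran as follows, with no test between branches. Of 11 oligosaccharyltransferase subunits, which attach sugars to entering chains, 9 were above 0 with a median of 0.20, and of 11 collagen folding enzymes 9 were above 0 with a median of 0.19. Of 20 further targeting, translocation and signal peptidase genes 15 were above 0 (median 0.16), and of 27 further ATF4 targets 22 were (median 0.13). Of 18 oxidative folding enzymes 14 were above 0 (median 0.13), and of 22 COPII coat, cargo and KDEL receptor genes 14 were (median 0.08). The further degradation genes split 10 to 9 (median 0.02) and the further sensors and transcription factors 11 to 11 (median 0.00038).

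The pathway genes with the smallest p-values in each list are given by their values. Colgalt1, which adds galactose to collagen, had log2 values of 7.15, 7.21 and 7.53 in diabetic arrays, against 6.76, 6.75 and 6.46 in nondiabetic arrays. The groups stood apart by 0.39, more than for any member, with a difference of 0.65 (SE 0.17). Crtap, a part of the collagen prolyl 3-hydroxylation complex, differed by 0.59 (SE 0.23). Ddost and Krtcap2, both oligosaccharyltransferase subunits, differed by 0.37 (SE 0.16) and 0.37 (SE 0.16), without overlap. Srprb and Srp68, of the signal recognition system that docks ribosomes, differed by 0.61 (SE 0.26) and 0.45 (SE 0.18). Nupr1, a stress-induced nuclear protein, had 7.66, 7.27 and 7.49 in diabetic arrays, against 7.03, 7.04 and 6.96 in nondiabetic arrays, a difference of 0.46 (SE 0.16). Its nondiabetic arrays lay close together (SD 0.04). Atf6b, the paralog of Atf6, differed by 0.32 (SE 0.17). The tRNA synthetase genes Cars and Yars differed by 0.39 (SE 0.16) and 0.44 (SE 0.22), and the thioredoxin-like Txndc12 by 0.56 (SE 0.22). Selenos, which tethers the extraction ATPase to the membrane, differed by 0.46 (SE 0.24). The coat genes Sec23a and Sec24d differed by 0.61 (SE 0.29) and 0.47 (SE 0.23), both with overlap. The lower values were those of Herpud2, a homolog of Herpud1, at -0.54 (SE 0.24), and of the isomerase gene Fkbp14 at -0.47 (SE 0.21), both with overlap.

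Plasma cell genes followed part of the same array pattern. Of 15 listed markers 11 were measured, 11 of 11 had differences above 0 with a median of 0.37, and 0 passed the adjusted limma test. The list mean over its 10 tested genes was 8.19, 7.36 and 8.02 in diabetic replicates 1 to 3, against 7.05, 7.44 and 7.76 in nondiabetic replicates 1 to 3. As with the members, diabetic replicate 1 was highest and nondiabetic replicate 1 lowest, and nondiabetic replicate 3 was the highest of its group. The order of other arrays differed. Diabetic replicate 2 lay under nondiabetic replicate 2 in plasma cell markers but above it in the members (8.48 against 8.30). It lay under nondiabetic replicate 3 in both. Diabetic replicate 3 lay above nondiabetic replicate 3 in plasma cell markers but under it in the members (8.48 against 8.51). Diabetic replicate 1 also had the highest mean over all tested genes, 6.84, and the highest list mean for endothelium, 9.39. Whether plasma cells have a part in the members' differences was not tested. Mzb1, a chaperone cofactor of B lineage cells, had 7.58, 6.06 and 7.25 in diabetic arrays, against 6.20, 6.38 and 6.79 in nondiabetic arrays. The joining chain gene Jchain had 10.61, 9.78 and 10.77 in diabetic arrays, against 9.70, 10.26 and 10.50 in nondiabetic arrays. Ighm, the brightest of the list, had 12.89, 12.51 and 12.64 in diabetic arrays, against 12.38, 12.46 and 12.56 in nondiabetic arrays. Among the diabetic arrays, replicate 2 was lowest for 16 of the 41 members, such as Txndc5 and Sel1l, and highest for 9, such as Derl1 and Hspa5. Replicate 3, which was high in plasma cell markers, was lowest for 18 members and highest for 6. Replicate 1 was lowest for 7 and highest for 26. The summed log2 level of the 11 markers ran from 78.4 to 86.7 in diabetic arrays and from 75.4 to 82.0 in nondiabetic arrays, and Tnfrsf13b alone was dim.

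**Figure D4:**
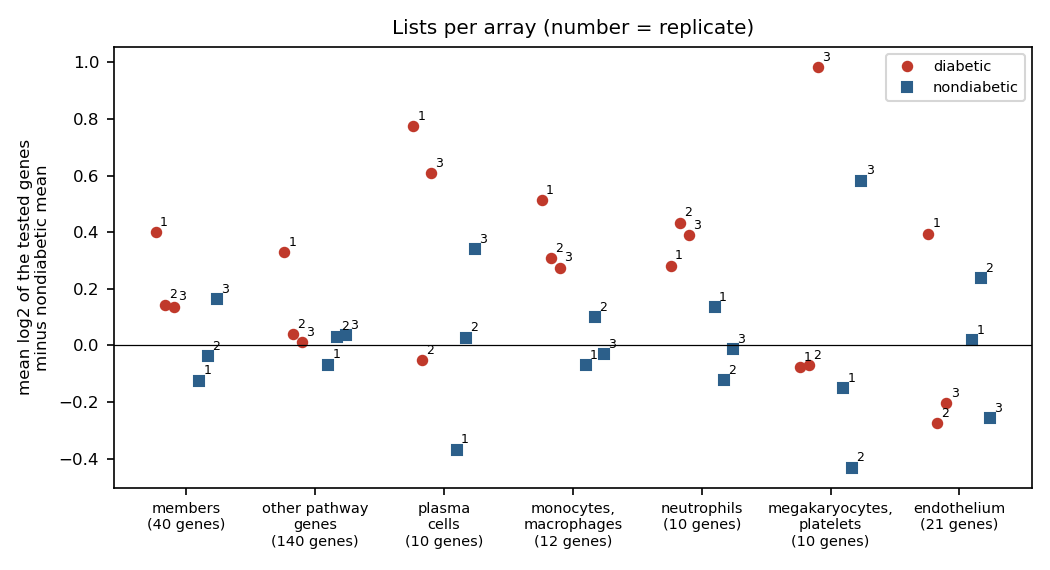
Mean log2 value of the tested genes of each list per array, minus the mean of the nondiabetic arrays (vertical axis), for the members, the other secretory pathway genes and 5 marker lists. Circles are diabetic and squares nondiabetic arrays with their replicate number. Nondiabetic replicate 3 lies above diabetic replicates 2 and 3 for the members, and the endothelial markers do not follow the members' order.

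Markers of other cells moved with the groups to differing extents. The monocyte and macrophage markers, 12 tested of 17 measured, did not overlap in their list means. Their summed log2 level over all 17 was 113.4 to 116.8 in diabetic arrays and 108.3 to 111.2 in nondiabetic arrays, and the macrophage markers Adgre1, Ms4a7, Fcgr1, Mpeg1 and C1qc were dim. Of the 17 markers 13 had differences above 0 and 4 below, and the largest was that of Vcam1, 0.93. Which of the sorted cells expressed these genes was not tested. The list means of the neutrophil markers, 10 tested of 16 measured, did not overlap either. Their sums over all 16 did overlap, with 100.9 to 103.1 in diabetic arrays and 97.5 to 101.3 in nondiabetic arrays, and Ltf, Camp, Ly6g, Mmp8, Mmp9 and Retnlg were dim. For the 7 tested of 13 measured B cell markers the list means were 5.97 to 6.41 in diabetic arrays and 5.74 to 5.98 in nondiabetic arrays. The sums over all 13 were 68.5 to 72.0 in diabetic arrays and 66.2 to 68.7 in nondiabetic arrays, and Vpreb1, Vpreb3, Rag2, Ms4a1, Cd22 and Blk were dim. The other lists overlapped widely. Their list means were 7.96 to 9.02 in diabetic arrays and 7.61 to 8.62 in nondiabetic arrays for megakaryocytes and platelets, and 8.88 to 9.31 in diabetic arrays and 8.55 to 9.74 in nondiabetic arrays for basophils and mast cells. They were 6.72 to 7.15 in diabetic arrays and 6.83 to 7.12 in nondiabetic arrays for erythroid cells, and 6.28 to 6.78 in diabetic arrays and 6.29 to 6.88 in nondiabetic arrays for T and NK cells. Stromal and bone cell markers had 6.99 to 7.14 in diabetic arrays and 6.9 to 7.19 in nondiabetic arrays. Endothelial markers had their highest list mean, 9.39, in diabetic replicate 1, the array highest for most members, but their median difference was -0.04.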

How the data were processed

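The values are log2 expression, as deposited by the authors. Per the submitters' processing notes they come from RMA, a method that corrects background, equalises the distributions of arrays and reduces probes to probe sets. The sources used here do not give its software or version, and the Ovation Pico WTA system amplified the RNA, per the labels' protocols. The table held 41345 probe sets with array medians of 5.21 to 5.28. Names came from the platform annotation, where 23521 probe sets name 1 gene, 1814 several and 16010 none. Each gene took its brightest single-gene probe set, and genes with a mean under the 40th percentile were left out as dim. The difference was fitted with limma 3.58.1 in R 4.3.3 (lmFit, eBayes, 3 arrays against 3, no covariates), with Benjamini-Hochberg adjustment over all 13308 tested genes at 0.05. Intervals are 95% intervals of that fit and are not adjusted. The fit was also run on simulated independent arrays with changes larger than that of any member. That run cannot show how well differences of the members' size are found. The number of arrays limits the precision.

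The members and gene lists were chosen with earlier results of these data known, so counts and medians over them are descriptions. All members are named. Of each pathway list the 2 tested genes with the smallest p are named, of each marker list the brightest where its values are given, and other named genes were picked after their values were seen. Same-numbered arrays did not deviate together (correlations of -0.04, -0.06 and 0.02 over the tested genes), and nothing in the labels pairs them. As alternatives, the dim filter was dropped or set at the 60th percentile, probe sets of a gene were averaged, arrays were quantile-normalized again or median-centred, variances were fitted with trend and robust settings, arrays were weighted, the replicate number was added as a block, and each array was left out in turn. Promoter sequences came from RefSeq, GRCm38.p6.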

Additional observations from a re-analysis of the deposited data

How the results depend on the processing

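No member and no pathway gene passed the adjusted limma test under any of the 14 alternatives, and the smallest adjusted p of a member was 0.47, with array weights. With a replicate block 0 members passed and the median difference of the members was 0.21, as without it, and the block changed no call. The median was 0.18 with quantile normalization again and with array weights, 0.20 with median centring, and 0.12 to 0.30 when single arrays were left out. The count of tested members above 0 was 35, with 33 to 37 under the alternatives, a comparison added after seeing the data. The count higher without overlap was 7, was 4 with median centring, was 6 with quantile normalization again (Canx and Derl1 overlapped, Xbp1 did not) and ranged from 8 to 17 with single arrays left out, where 9.21% to 12.9% of tested genes showed that pattern. The share of tested genes was 5.28% in the main fit, 4.89% with median centring and 4.61% with quantile normalization again. The count lower without overlap was 0 and ranged from 0 to 1. Of 40 tested members, 30 kept their sign under every alternative and 10 changed it at least once. With array weights Atf6 was -0.00076 and Sel1l -0.0054, and with quantile normalization again Ssr1 was -0.0058; the cause was not tested. When single arrays were left out the differences ranged from -0.0092 to 0.15 for Atf4, -0.0032 to 0.35 for Atf6, -0.31 to 0.27 for Ddit3, -0.019 to 0.18 for Dnajb9, -0.086 to 0.25 for Ern1, -0.21 to 0.056 for Nucb2, -0.077 to 0.44 for Ssr2 and -0.065 to 0.033 for Ssr3. Values near the dim limit of 5.07, as for Fkbp11, Eif2ak3, Derl3, Chac1 and Trib3, may hold much background.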
